A study of Mus musculus with 6 samples.

Results

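Complex I, NADH:ubiquinone oxidoreductase, is the largest enzyme of the mitochondrial respiratory chain. It was examined here through the transcripts of its subunits in BV2, a mouse line of immortalised microglia. Members were chosen by gene symbol alone: protein-coding genes named Ndufa, Ndufb, Ndufc, Ndufs or Ndufv with a digit, Ndufab1, and every gene beginning with mt-Nd. The rule found 44 genes among the 12327 in the deposited table, 37 encoded in the nucleus and 7 in mitochondrial DNA. Of 45 genes that meet the rule in the GENCODE M21 annotation, 1, Ndufa4l2, was not in that table. Despite its name, Ndufa4 is now generally assigned to complex IV, and it was kept because the rule names it.

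The 6 libraries were made from ribosomal RNA-depleted total RNA. The 3 knockdown libraries came from BV2 cells kept for 48 hours after infection with adenovirus that delivers a short hairpin RNA against GCH1 (group Ad-shGCH1, genotype GCH1-KD), and the 3 control libraries from cells of the same subline (group Ad-NC, genotype negative control). The series text calls the controls wild type, and whether they received a virus is unclear from these labels. GCH1 is GTP cyclohydrolase I, which starts the synthesis of tetrahydrobiopterin. Whether libraries of the same group were separate cultures is not stated, and the p-values here therefore rest on a spread between libraries that may be technical. Expression is given as FPKM, the count of fragments scaled to transcript length and to the fragments mapped in the library. This unit is scaled for transcript length but not for GC content or for reads shared with other genes. Comparisons of level between genes are therefore approximate.

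Complex I takes electrons from NADH, passes them along a chain of flavin and iron-sulfur clusters to ubiquinone and pumps protons across the inner mitochondrial membrane. Its catalytic core is made of 14 subunits found also in bacteria. The 7 hydrophilic core subunits are imported from the cytosol, and the 7 hydrophobic ones are made inside the mitochondrion from the mt-Nd genes, so assembly needs the products of both genomes. The other subunits, called accessory, surround the core and serve assembly and stability. Microglia that are activated by inflammatory stimuli are known to lower oxidative phosphorylation and to rely more on glycolysis, and nitric oxide can inhibit the respiratory chain.

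The targeted gene fell as the labels state. Gch1 was at 6.89, 7.22 and 7.23 FPKM in the controls and 3.20, 2.93 and 3.43 FPKM in the knockdown libraries. Its level after knockdown was 44.8% of control. Of 12 microglial and macrophage markers, 11 were tested, with Cd68 at 472 FPKM and Tyrobp at 262 FPKM, while Tmem119 was at 0.583 FPKM, Cx3cr1 at 0.918 FPKM and P2ry12 was not in the table. Of other cell types, 1 of 5 astrocyte, 1 of 5 oligodendrocyte, 1 of 5 fibroblast and mural, 2 of 5 endothelial, 1 of 4 lymphocyte and 0 of 5 neuronal markers were tested, and none passed the threshold. By estimate, the controls held 5.25 to 5.58 Gb (gigabases) and the knockdown libraries 6.32 to 7.61 Gb of aligned sequence, and the groups did not overlap in depth. Its part in the results below was not tested.

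The genes of the mitochondrial subunits lie close together, and in 2 places they share bases. Mouse mitochondrial mRNAs are cut from long transcripts of either strand, and mt-Nd4l and mt-Nd4 stay together on 1 mRNA. The end of mt-Nd4l and the start of mt-Nd4 are shown with the 7 shared bases in capitals, and the ends of mt-Nd5 and mt-Nd6, which lie on opposite strands, with the 14 shared bases in capitals. The first bases of mt-Nd3 are given too, with its first codon in capitals, because mt-Nd3 had the highest fold change of all 44 subunits. All were read 5′ to 3′ from the GENCODE M21 transcripts (GRCm38).
mt-Nd4l, last 30 bases, chrM:10144-10173, plus strand: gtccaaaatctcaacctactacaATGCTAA
mt-Nd4, first 30 bases, chrM:10167-10196, plus strand: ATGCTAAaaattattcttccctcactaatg
mt-Nd5, last 30 bases, chrM:13536-13565, plus strand: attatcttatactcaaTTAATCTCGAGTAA
mt-Nd6, last 30 bases, chrM:13552-13581, minus strand: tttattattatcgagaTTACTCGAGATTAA
mt-Nd3, first 30 bases, chrM:9459-9488, plus strand: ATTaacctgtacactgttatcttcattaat
These genes have no introns. The annotated transcripts are 297 bases long for mt-Nd4l, 348 for mt-Nd3 and up to 1824 for mt-Nd5. The annotated mt-Nd4 transcript ends in a single T past its last whole codon, and it is known that the polyadenine tail completes such a stop codon. Transcript GC content was 33.0% to 41.1% in the 7 mitochondrial subunits, and 44.1% to 60.4% in the 37 nuclear ones.

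Transcripts of the mitochondrial subunits were far more abundant than those of the nuclear subunits. Over the 6 libraries, the 7 mitochondrial subunits had mean levels of 155 to 1422 FPKM (median 793 FPKM), against 2.58 to 88.4 FPKM (median 27.6 FPKM) for the 37 nuclear ones. The lowest mitochondrial subunit, mt-Nd3, thus lay above the highest nuclear one, Ndufa1. The plot of levels by library shows this gap. Together the 7 mitochondrial subunits made up 2.27% to 2.55% of all FPKM in a library and the 37 nuclear subunits 0.476% to 0.523%.

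**Figure D1:**
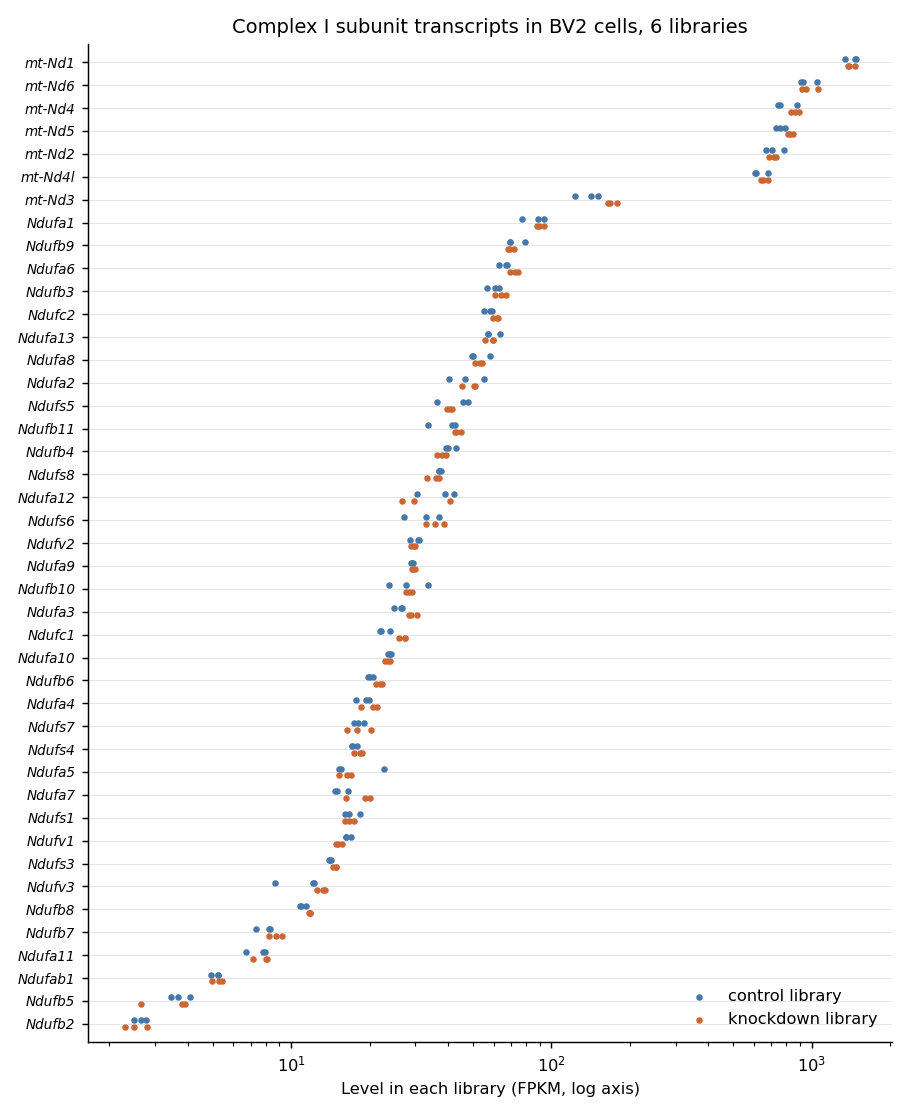
Level of 43 of the 44 complex I subunit transcripts (FPKM, log axis) in the 3 control and 3 knockdown libraries, ordered by mean level, each point 1 library. The 7 mitochondrial subunits lie above all 36 nuclear subunits drawn, and for most genes the points of the 2 groups overlap.

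Among the mitochondrial subunits, the order of mean levels was mt-Nd1, mt-Nd6, mt-Nd4, mt-Nd5, mt-Nd2, mt-Nd4l and mt-Nd3, and each neighbouring pair stood in this order in 6 of 6 libraries. Ranges over the libraries did not overlap in 3 of the 6 neighbouring pairs: mt-Nd1 and mt-Nd6, mt-Nd6 and mt-Nd4, and mt-Nd4l and mt-Nd3. The other 3 pairs had overlapping ranges. mt-Nd4 and mt-Nd4l, which share an mRNA, had means of 828 and 645 FPKM. mt-Nd6, the only protein gene read from the other strand, had a mean of 972 FPKM. How the authors counted strands is not given in the sources used here, so reads of mt-Nd6 and of RNA opposite to it cannot be told apart.

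The 37 nuclear subunits spanned a wide range of transcript levels. The highest were Ndufa1, a small membrane-arm subunit encoded on the X chromosome (88.4 FPKM), Ndufb9 (71.1 FPKM) and Ndufa6 (69.0 FPKM). The lowest were Ndufb2 (2.58 FPKM), Ndufb5 (3.60 FPKM) and Ndufab1, the mitochondrial acyl carrier protein (5.17 FPKM). The ranges over libraries of neighbours in this order overlapped in all but 6 of 36 pairs, so most of the order is not resolved. The 7 nuclear core subunits had a median of 18.1 FPKM, below the median of 27.6 FPKM over all 37. The lowest of the 7 was Ndufs3 at 14.4 FPKM.

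None of the 44 subunits, 0 of 44, passed the test for a difference between knockdown and control, limma on log2(FPKM + 1) with Benjamini-Hochberg (BH) adjustment over all 12222 genes tested and a threshold of 0.05. The background was 10 of 12222 genes (0.0818%). All 44 subunits passed the filter on low values. Among the 44, the adjusted p ranged from 0.24 to 0.996. The count of 0 was the same under every alternative run, which are listed under the processing. With the replicate block no gene passed at all, Gch1 included. At the background share few or no genes of 44 would pass, so this count alone says little about the subunits. Differences of mean log2(FPKM + 1), knockdown minus control, are called fold changes here, and ran from -0.21 for Ndufa12 to 0.30 for mt-Nd3, with 29 subunits above control and 15 below. RNA from bulk cells cannot separate fewer mitochondria, or fewer cells that express a gene, from less RNA in each. FPKM is scaled to the fragments mapped in the library, so a change common to all transcripts would not show.

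For most subunits the fold change had a narrow interval, as judged by the spread between these libraries. That spread may be technical, so the intervals may not bound a change between separate cultures. The unadjusted 95% confidence interval of the fold change lay within 1.5-fold in either direction for 43 of 44 subunits and within 1.25-fold for 35 of 44. The exception at 1.5-fold was Ndufa12, an accessory subunit, whose interval ran from -0.61 to 0.20 on the log2 scale. Over all 12222 genes tested, 11639 lay within 1.5-fold and 9340 within 1.25-fold. The within-group SD of log2 values had a median of 0.077 over the nuclear subunits, 0.088 over the mitochondrial ones and 0.078 over all genes.

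**Figure D2:**
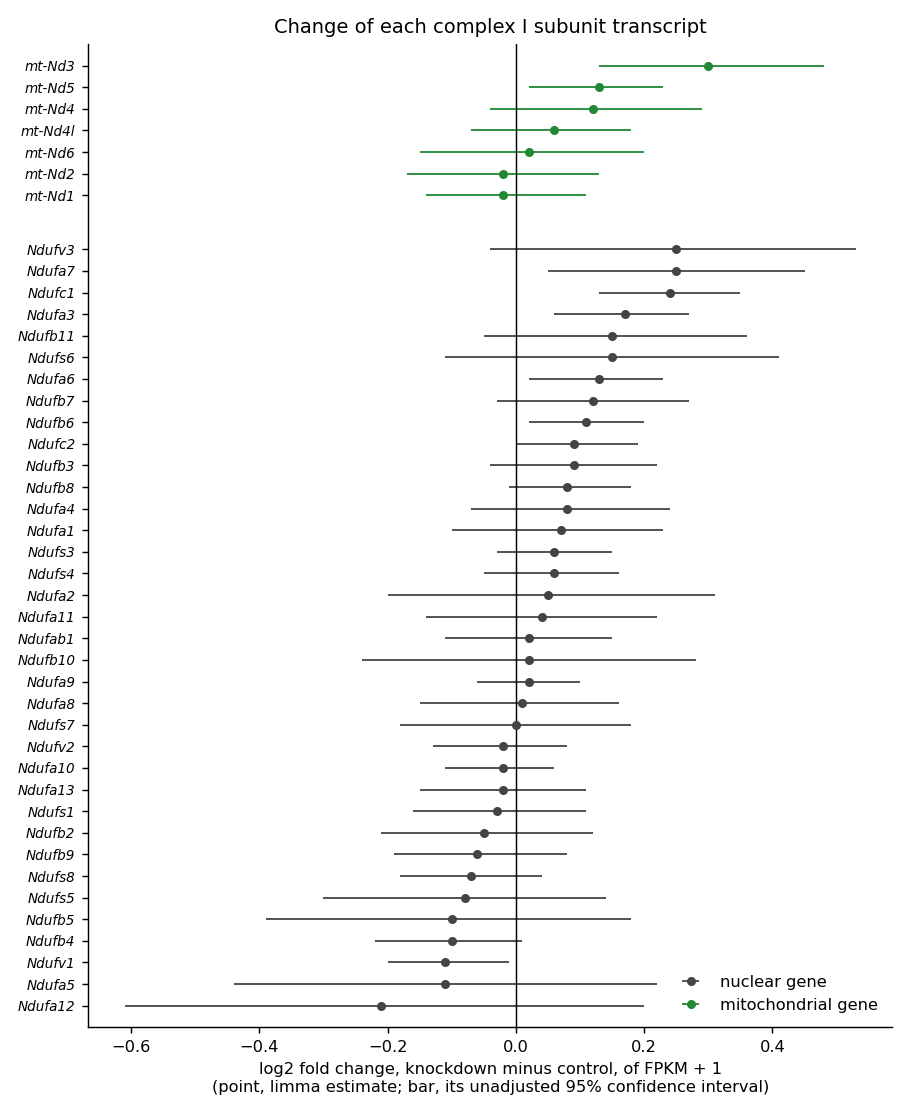
Log2 fold change of 43 of the 44 subunits (knockdown minus control, of FPKM + 1) as estimated by limma, with its unadjusted 95% confidence interval, nuclear genes below and mitochondrial genes above. Estimates lie between -0.21 and 0.30, and 0 of 44 subunits pass after adjustment over all genes.

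The hydrophobic core, encoded in mitochondrial DNA, did not pass the test in any of its genes. Of the 7 mt-Nd transcripts, 5 were above control and 2 below. Their median was 0.06 on the log2 scale, against 0.01 over all genes tested. The fold changes were 0.30 (SE 0.07) for mt-Nd3, 0.13 (SE 0.04) for mt-Nd5, 0.12 (SE 0.07) for mt-Nd4, 0.06 (SE 0.05) for mt-Nd4l, 0.02 (SE 0.08) for mt-Nd6, -0.02 (SE 0.06) for mt-Nd2 and -0.02 (SE 0.05) for mt-Nd1. Their limma BH adjusted p was 0.291 for mt-Nd3, 0.379 for mt-Nd5 and 0.533 to 0.941 for the other 5. The ND subunits together form the proton-pumping membrane arm, with ND1 at the ubiquinone site and ND2, ND4 and ND5 as antiporter-like units.

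mt-Nd3 encodes a small subunit whose matrix loop contacts the ubiquinone site. It was at 142, 150 and 123 FPKM in the controls and 168, 179 and 165 FPKM in the knockdown libraries. All 3 knockdown values lay above all 3 controls, at a mean of 123.3% of control. The estimated 0.237 to 0.446 Mb (megabases) of aligned sequence per library behind this gene are the fewest among the mitochondrial subunits.

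mt-Nd5, the largest of the 7, also showed groups that did not overlap. It was at 731, 792 and 755 FPKM in the controls and 808, 851 and 825 FPKM in the knockdown libraries, 109.1% of control. With the trend of GC content and length removed, its fold change was 0.05 in log2 units in place of 0.13. The other 5 overlapped. mt-Nd4 was at 741, 882 and 757 FPKM in the controls and 861, 894 and 834 FPKM after knockdown, with control 2 above 2 of the 3 knockdown libraries. mt-Nd4l, its partner on the same mRNA, was at 612, 678 and 608 FPKM and then 639, 678 and 653 FPKM, and here control 2 and knockdown 2 were the highest libraries and nearly equal.

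The remaining 3 mitochondrial subunits overlapped between the groups. mt-Nd1 was at 1348, 1479 and 1464 FPKM in the controls and 1378, 1468 and 1398 FPKM after knockdown. mt-Nd2 was at 670, 785 and 706 FPKM and then 714, 731 and 687 FPKM. mt-Nd6 was at 927, 1052 and 913 FPKM and then 954, 1062 and 922 FPKM. In each of these genes the values of the 2 groups were interleaved, and for mt-Nd1 and mt-Nd2 the highest single value was control 2.

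Across 10684 tested protein-coding genes, Spearman's rho between fold change and transcript GC content was -0.29. Across the 44 subunits it was -0.19, and across the 37 nuclear ones -0.09. In 568 protein-coding genes of the nuclear genome with transcripts within the GC range of the mt-Nd genes, the median log2 fold change was 0.07. Of the 568, 449 were above control. Their median GC content was 39.6%, against 35.7% in the mt-Nd genes, so the sets are not matched within that range. For the 568 genes, the median deviation from each gene's own mean was -0.06, 0.06 and -0.11 in controls 1 to 3. It was 0.09, 0.04 and -0.01 in knockdown libraries 1 to 3. For the mt-Nd genes it was -0.09, 0.07 and -0.08 in the controls and 0.00, 0.10 and 0.01 after knockdown. Control 2 was the high control in both. The highest knockdown library differed: knockdown 1 for the genes of the nuclear genome and knockdown 2 for the mt-Nd genes. With the trend of GC content and length removed from each library, the mt-Nd median was -0.04 in place of 0.06, 3 of the 7 were above control. Of these, mt-Nd3 was at 0.16 (SE 0.05) in place of 0.30, mt-Nd5 at 0.05 (SE 0.05) and mt-Nd4 at 0.03 (SE 0.05) in place of 0.12, and the other 4 were below control. Without control 2, all 7 were above control, with a median of 0.11. In the tenth of protein-coding genes lowest in GC content, the median GC content was 40.9%. The trend at the mt-Nd values thus rests largely on genes of higher GC content. Whether the mt-Nd values follow from this trend was not tested.

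**Figure D3:**
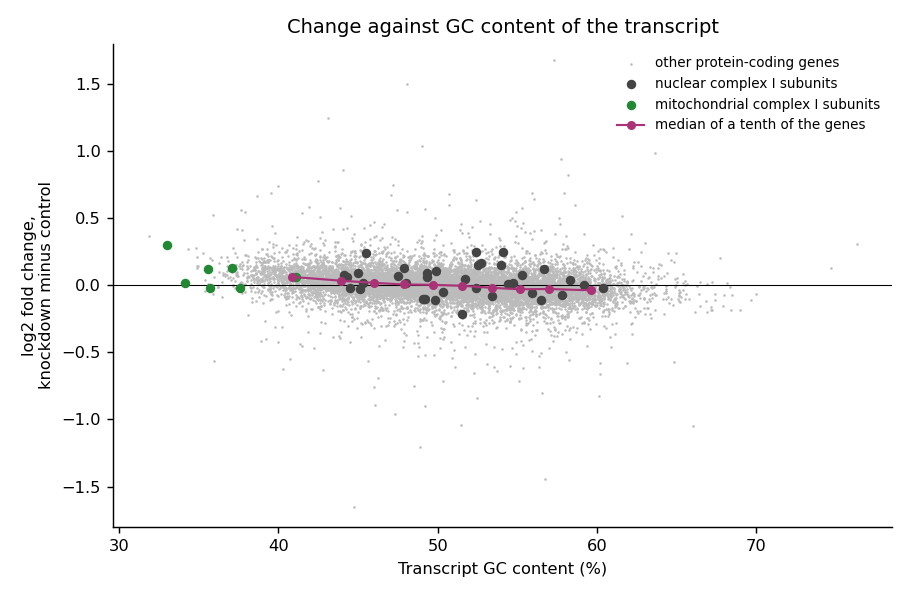
Log2 fold change (knockdown minus control, of FPKM + 1) against transcript GC content in percent, with other protein-coding genes in grey, complex I subunits in dark grey and green, and a line through the medians of 10 groups of genes of like size. The medians go from 0.063 in the group of lowest GC content to -0.037 in the highest, and all 7 mitochondrial subunits lie at the low end.

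The hydrophilic core, encoded in the nucleus, did not pass in any gene either. It carries electrons from NADH to ubiquinone in the matrix arm. Of its 7 genes, 3 were above control and 4 below. Their median was -0.02 on the log2 scale, and all 7 intervals lay within 1.25-fold. Ndufv1, which holds the flavin and the NADH site, was at 16.2, 17.0 and 16.3 FPKM in the controls and 14.9, 15.6 and 15.1 FPKM in the knockdown libraries. All 3 knockdown values lay below all 3 controls, at 92.4% of control. The difference was -0.11 on the log2 scale with an SE of 0.04 (limma BH adjusted p = 0.395).

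Its partner Ndufv2, which carries an iron-sulfur cluster, was at -0.02 (SE 0.04) in log2 units, and Ndufs1, which carries several of the clusters, at -0.03 (SE 0.06). Toward ubiquinone, Ndufs8 was at -0.07 (SE 0.05) and Ndufs7, which holds the last cluster of the chain, at 0.00 (SE 0.08). Ndufs3 was at 14.3, 14.0 and 14.2 FPKM in the controls and 14.9, 14.9 and 14.5 FPKM after knockdown, which did not overlap although the means differed by only 4.3%. The limma BH adjusted p of these 5 genes was 0.588 to 0.996.

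The accessory subunits lay on both sides of control. Of 30 nuclear subunits outside the core, 21 were above control and 9 below, and their median was 0.06 in log2 units. Counts by name include the core genes and leave out Ndufab1. Above control were 9 of 13 Ndufa, 6 of 10 Ndufb and 2 of 2 Ndufc genes. So were 5 of 8 Ndufs and 1 of 3 Ndufv genes, the families that hold the core. Over all genes tested, 6476 of 12222 were above control.

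Ndufc1, a small membrane-arm subunit, had the smallest p of all 44 subunits. It was at 22.1, 24.0 and 22.0 FPKM in the controls and 26.0, 27.4 and 27.3 FPKM in the knockdown libraries. The groups did not overlap, with knockdown at 118.7% of control, a difference of 0.24 in log2 units with an SE of 0.05 (limma BH adjusted p = 0.24). Its companion Ndufc2 was at 59.0, 55.1 and 58.3 FPKM and then 59.7, 62.6 and 61.5 FPKM, also without overlap, at 0.09 (SE 0.04, adjusted p = 0.457).

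Of the 13 Ndufa genes, 3 had an unadjusted limma p under 0.05, all of them higher (23.1%, against 6.47% of all genes tested). Ndufa3 was at 26.4, 24.7 and 26.5 FPKM in the controls and 28.8, 30.4 and 28.5 FPKM after knockdown, without overlap. Ndufa6 was at 62.9, 67.1 and 67.7 FPKM and then 69.1, 74.2 and 72.6 FPKM, also without overlap. Ndufa7 was at 16.5, 14.9 and 14.7 FPKM and then 16.3, 20.1 and 19.3 FPKM, with knockdown 1 below control 1.

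The log2 fold changes were 0.17 (SE 0.05) for Ndufa3, 0.13 (SE 0.04) for Ndufa6 and 0.25 (SE 0.08) for Ndufa7. Their adjusted p by limma was 0.304, 0.379 and 0.361. Of these, Ndufa6 is an accessory subunit that binds the acyl carrier protein Ndufab1 on the matrix arm. Ndufab1 itself was at 4.90, 5.24 and 5.22 FPKM and then 5.42, 4.95 and 5.27 FPKM, interleaved, at 0.02 (SE 0.05). At the lower end of the family, Ndufa12 was at 39.2, 42.1 and 30.4 FPKM and then 26.6, 29.7 and 40.9 FPKM, a spread within each group that exceeded the difference of their means. Ndufa5, an accessory subunit of the matrix arm, was at 15.5, 15.3 and 22.7 FPKM and then 15.3, 16.9 and 16.4 FPKM. Control 3 stood apart there, and without it the log2 fold change was 0.07 in place of -0.11.

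Among the Ndufb genes, which encode accessory subunits of the membrane arm, Ndufb6 was at 19.7, 20.1 and 20.6 FPKM in the controls and 21.2, 22.3 and 21.8 FPKM after knockdown. The groups did not overlap, at 108.3% of control (log2 0.11, SE 0.04, limma BH adjusted p = 0.383). Ndufb8 was the other Ndufb gene without overlap, at 11.4, 10.9 and 10.8 FPKM and then 11.7, 11.8 and 11.8 FPKM. Ndufb11, encoded on the X chromosome, was at 42.7, 33.6 and 41.3 FPKM and then 42.6, 45.0 and 42.9 FPKM, with control 2 apart from the other 5 libraries.

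The Ndufb genes at the lower end were Ndufb4 (log2 -0.10, SE 0.05) and Ndufb5 (-0.10, SE 0.12). Ndufb5 was at 3.67, 4.10 and 3.46 FPKM and then 2.65, 3.79 and 3.91 FPKM, where only knockdown 1 was low. The lowly expressed Ndufb2 was at -0.05 (SE 0.07), and the highly expressed Ndufb9 at -0.06 (SE 0.06) and Ndufa1 at 0.07 (SE 0.07). Ndufv3, an accessory subunit beside the NADH site, was at 12.1, 12.3 and 8.63 FPKM and then 13.2, 12.6 and 13.5 FPKM. Its fold change was 0.25 in log2 units (SE 0.12, limma BH adjusted p = 0.492), and 0.10 without control 3, the low library.

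The other nuclear subunits lay close to control. Ndufs4 and Ndufs6, accessory subunits of the matrix arm that are needed for a stable NADH-binding module, were at 0.06 (SE 0.04) and 0.15 (SE 0.11) in log2 units. Ndufs5 was at -0.08 (SE 0.09). Ndufa2, Ndufa4, Ndufa8, Ndufa9, Ndufa10, Ndufa11, Ndufa13, Ndufb3, Ndufb7 and Ndufb10 ranged from -0.02 for Ndufa10 and Ndufa13 to 0.12 for Ndufb7. Their limma BH adjusted p was 0.509 to 0.977.

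**Figure D4:**
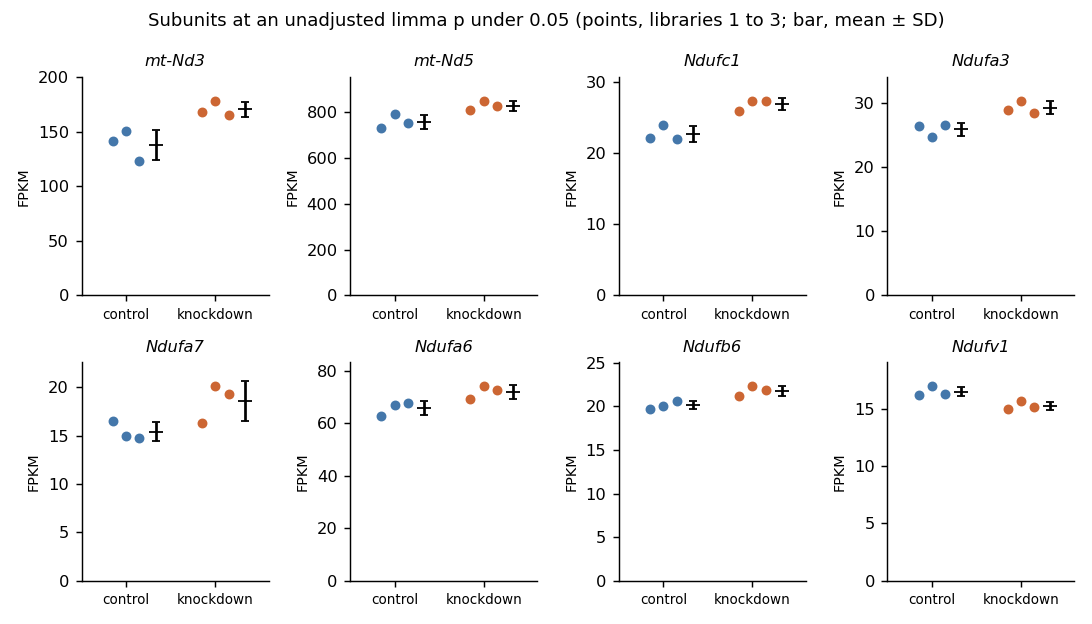
Level in FPKM of the 8 subunits with an unadjusted limma p under 0.05, in controls 1 to 3 and knockdown libraries 1 to 3 from left to right, with the mean and SD of each group. These 8 are 18.2% of the 44 subunits, against 11.3% of all genes tested at the same threshold. In 7 of the 8 the knockdown mean is higher, in Ndufv1 it is lower, and Ndufa7 is the only one of the 8 whose groups overlap.

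Counts without adjustment depended on single libraries. An unadjusted limma p under 0.05 was reached by 7 of 44 subunits higher (15.9%) and 1 lower (2.27%), against 6.47% and 4.82% of all genes tested. Without knockdown 2, and likewise without knockdown 3, the count higher was 3 of 44 (6.82%), against 5.16% and 4.79% of all genes, with 1 lower in each case. With knockdown 1 or a control left out, it was 6 to 8 of 44 (13.6% to 18.2%), against 4.72% to 9.04% of all genes. Groups did not overlap in 10 subunits with knockdown higher (22.7%) and in 1 with knockdown lower (2.27%), against 9.99% and 8.36% of all genes. The 10 were mt-Nd3, mt-Nd5, Ndufa3, Ndufa6, Ndufb6, Ndufb8, Ndufc1, Ndufc2, Ndufs3 and Ndufv3, and the 1 was Ndufv1. These subunits share libraries and the trends described here, so they are not independent, and no test of the counts was made. Across the 37 nuclear subunits Spearman's rho between fold change and transcript length was -0.42, against -0.02 across 10684 protein-coding genes, and between fold change and GC content -0.09, against -0.29. With the trend of GC content and length across all genes removed, Ndufc1 was at 0.18, Ndufa3 at 0.16 and Ndufa7 at 0.25. That trend was fitted over all genes, so the relation to length within the subunits was not itself removed.

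The summed levels of the nuclear and mitochondrial subunits did not separate the groups. The 37 nuclear subunits summed to 1146, 1092 and 1184 FPKM in the controls and 1120, 1190 and 1191 FPKM in the knockdown libraries. The 7 mitochondrial subunits summed to 5170, 5818 and 5325 FPKM and then 5522, 5863 and 5485 FPKM. The ratio of mitochondrial to nuclear sums was 4.51, 5.33 and 4.50 in the controls and 4.93, 4.93 and 4.61 after knockdown.

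The mean ratio was 4.78 ± 0.48 in the controls and 4.82 ± 0.18 in the knockdown libraries (SD, n = 3 each), a difference below the spread of either group. Control 2, with the lowest nuclear and the highest mitochondrial sum of the controls, had the highest ratio of all 6 libraries. The median log2 fold change was 0.06 for the mitochondrial and 0.02 for the nuclear subunits. The difference of these medians was 0.033, less than the SD of 0.089 between libraries, and turned to -0.064 with the trend of GC content and length removed.

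**Figure D5:**
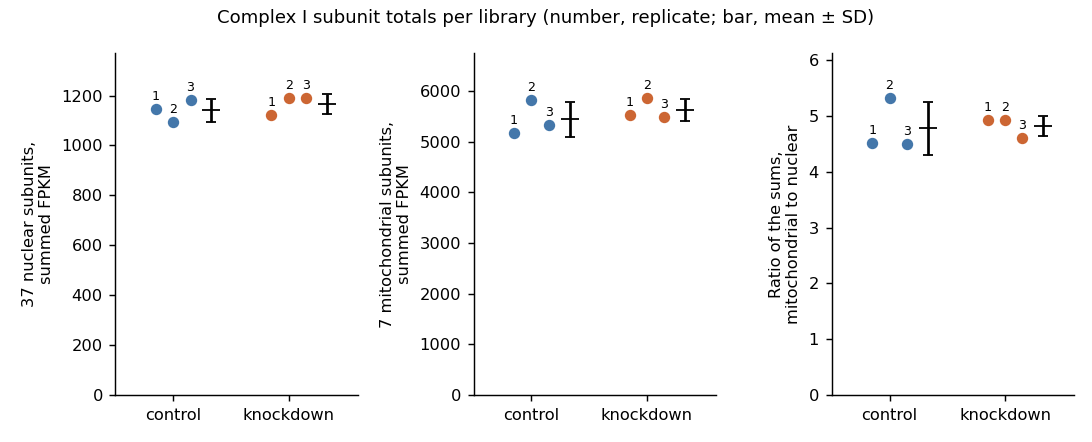
Summed FPKM of the 37 nuclear subunits (left) and of the 7 mitochondrial subunits (middle), and the ratio of the 2 sums (right), in each library, numbered by replicate, with the mean and SD of each group. In all 3 panels the knockdown libraries overlap the controls, and control 2 has the highest ratio at 5.33.

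None of the tested genes that serve complex I around its subunits passed. Of 18 assembly factors tested, 11 were above control, and their median was 0.01 in log2 units. The 2 with the smallest p were Tmem126b, a membrane protein of the assembly complex for the membrane arm, at 0.14 (SE 0.05), and Ndufaf8 at 0.16 (SE 0.06). Their adjusted p by limma was 0.383 and 0.387. Of 14 genes of iron-sulfur cluster assembly, 8 were above control (median 0.03), with the ferredoxin Fdx1l at 0.15 (SE 0.07).

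Of the machinery that transcribes, processes and maintains mitochondrial DNA, 21 of 26 genes were above control, with a median of 0.05 in log2 units. Over all genes tested, 6476 of 12222 were above control, with a median of 0.01. The median transcript GC content of the 26 was 46.5%, against 49.8% over all genes tested. Whether their values follow the trend of GC content was not tested. Polrmt, the mitochondrial RNA polymerase, lay below control. It was at 5.41, 5.48 and 5.99 FPKM in the controls and 4.71, 4.66 and 4.59 FPKM in the knockdown libraries. The groups did not overlap (log2 -0.23, SE 0.05, limma BH adjusted p = 0.287). Mterf3, a negative regulator of mitochondrial transcription, was at 0.28 (SE 0.09, adjusted p = 0.343). Of 7 nuclear regulators of mitochondrial genes, 2 were above control and 5 below (median -0.04). The coactivator Ppargc1b was at -0.25 (SE 0.08, adjusted p = 0.356) and the transcription factor Yy1 at 0.12 (SE 0.04, adjusted p = 0.379). Of the 6 other mitochondrial mRNAs, 5 were above control (median 0.10), with mt-Atp8 at 0.37 (SE 0.09) and mt-Co2 at 0.15 (SE 0.05), at adjusted p of 0.287 and 0.358.

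The nuclear subunits were also compared by the sequence of their promoters, since NRF1, the ETS factor GABPA and YY1 are known regulators of respiratory genes. Of the 37, 33 had a promoter in the RefSeq table (GRCm38.p6), 250 bases before to 50 after the gene's start, on the gene's strand, 300 bases in all. Those without an entry included Ndufa2, Ndufb9 and Ndufs1. The YY1 letters AAGATGGCG, searched on both strands, were found in 5 of 33 (15.2%), against 4.0% of 8738 tested genes with a promoter and 1.6% of all 27025 genes in the table. All 5 matches lay on the gene's own strand, 22 to 35 bases past the start. The windows of 30 bases that hold them are shown with the match in capitals, because the same letters stand at nearly the same distance from the start in separate genes.
Ndufc1, chr3:51408914-51408943, minus strand: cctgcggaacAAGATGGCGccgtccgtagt
Ndufs7, chr10:80249463-80249492, plus strand: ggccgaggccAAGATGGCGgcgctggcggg
Ndufa9, chr6:126849096-126849125, minus strand: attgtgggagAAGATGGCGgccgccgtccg
Ndufs6, chr13:73328433-73328462, minus strand: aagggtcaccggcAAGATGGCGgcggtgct
Ndufs4, chr13:114388045-114388074, minus strand: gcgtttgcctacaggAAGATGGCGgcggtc
The log2 fold changes of these 5 genes were 0.24, 0.00, 0.02, 0.15 and 0.06 in the same order. The letters include ATG, and a match is a description, not a bound site.

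The NRF1 letters GCATGCGC were found in 3 of 33 promoters (9.1%), those of Ndufa6, Ndufa8 and Ndufa11, against 6.6% of tested genes and 3.0% of all genes. In Ndufa11 the matches on the 2 strands overlap each other. These windows are shown with the match in capitals, since Ndufa6 is among the subunits whose groups did not overlap and the other 2 are not.
Ndufa6, chr15:82354355-82354384, minus strand: ccgcggtagaGCATGCGCattgcagagccc
Ndufa8, chr2:36049327-36049356, minus strand: cgctggagacGCATGCGCagatggtaccgg
Ndufa11, chr17:56717692-56717721, plus strand: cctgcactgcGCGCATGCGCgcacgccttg
The ETS letters CCGGAAGT were found in 1 of 33 (3.0%), that of Ndufs3, against 10.3% of tested genes. The GC box letters GGGCGG were found in 15 of 33 (45.5%) against 69.0%, and TATAAA in 4 of 33 (12.1%) against 8.3%. The median GC content of these promoters was 59.0%, against 60.7% in tested genes. No test was made on these shares.

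Some subunit levels may include reads of other genes. A pseudogene with at least 95% identity over at least 100 bases in the same sense was annotated for 11 nuclear and 5 mitochondrial subunits, and 0 of these copies were in the deposited table. For mt-Nd3, Gm28438 matched at 99.7% over 345 bases. For mt-Nd4, Gm28439 matched at 100% over 876 bases. How the authors assigned reads that fit both is not given in the sources used here, so values of these genes are uncertain to that extent. Exons of 11 nuclear subunits overlapped a deposited gene on the other strand, by 530 bases for Ndufb5 with Mrpl47 and 257 bases for Ndufb6 with Smim27. On the same strand, 0 overlapped a deposited gene. Annotated genes outside the deposited table did overlap there: Gm42420 with Ndufb2 (145 bases), Gm20538 with Ndufb8 (134 bases) and Gm49356 with Ndufb9 (193 bases).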

How the data were processed

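The deposited table gives a value per gene and library without naming its unit. The authors' values were read as FPKM, since the value times transcript length falls on multiples of a fixed step. Of the values of 872 to 944 genes with 1 transcript, 73.6% to 76.3% were whole to within 0.1 step. By chance 20.0% would be so for a step set in advance, but this step was chosen as the best fit to the same values. Other units scaled by length could also give such a step, so the unit is inferred. Depth was estimated from this step and holds only if the unit is FPKM. Per the submitters' processing notes, HISAT2, StringTie and edgeR were used, with no role or version, and the build named is hg38, although the identifiers are mouse Ensembl genes. In every gene kept, the higher of the group means is 0.501 FPKM or more. No column belonged to another series (0).

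Of 12327 identifiers, 12300 matched GENCODE M21 (GRCm38) without the version. Genes reaching 0.5 FPKM in 3 or more libraries were fitted with limma 3.58.1 in R 4.3.3 on log2(FPKM + 1), with a mean-variance trend and no covariate, and p-values were BH adjusted over all of them. GC content and length are medians over a gene's annotated transcripts. Alternatives were a replicate block, leaving out each library, other filters (none, or a mean of 5 FPKM), pseudocounts of 0.5 and 0.1, scaling by median ratios, by quantiles or to the nuclear protein-coding sum, removing a loess trend of GC content and length (span 0.3), no mean-variance trend, and robust moderation. Named genes are all mt-Nd genes, the nuclear core, the 5 highest and 5 lowest nuclear fold changes, the 3 highest and 3 lowest nuclear levels and the 2 smallest p of each other list. Other subunits were named after their values were seen. By this rule 1 subunit and 1 other gene would also be named, and their values are not reported here except within counts, medians and sums. Members and lists were chosen with earlier results of these data known. The fit was tested on simulated data. Python 3.11.15, numpy 2.4.6, pandas 2.3.3 and scipy 1.17.1 were used.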

Additional observations from a re-analysis of the deposited data

How the results depend on the processing

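No complex I subunit passed, 0 of 44, under any of the 17 alternatives, where the lowest limma BH adjusted p of any subunit was 0.168, for Ndufc1 without control 2. At an unadjusted limma p under 0.05 there were 8 subunits (18.2% of 44, against 11.3% of all genes tested). With a library left out there were 4 to 9. The count was 4 (9.09%) without knockdown 2 or knockdown 3, where all genes gave 9.21% and 8.84%. It was 9 (20.5%) without control 2, where all genes gave 13.6%. The count of genes passing over all genes was 10 as reported, 0 with the replicate block (1330 genes at an unadjusted p under 0.05), and 6 to 18 with a library left out (18 without control 2, 6 without knockdown 2 or knockdown 3). The mitochondrial median of 0.056 was -0.041 with the trend of GC content and length removed, and 0.028 to 0.107 with a library left out (0.028 without control 3, 0.107 without control 2). The nuclear median of 0.023 was 0.002 without control 2 and 0.058 without control 3. The difference of the medians, 0.033, was -0.064 with the trend removed, and -0.031 to 0.105 with a library left out. The cause of these shifts was not tested. In 657 refits of single named genes, 1 no longer passed (Gch1 with the block, adjusted p = 0.0604), 0 newly passed, and 26 uncalled values changed sign. Replicate numbers of the titles gave correlations of deviations of 0.095, 0.059 and 0.094 across genes for the same number, each the best match of its library, which is a hint only: the design does not pair them. The 2 subunits with a mean below 5 FPKM, Ndufb2 and Ndufb5, rest on the fewest reads.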

Other observations

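The following genes were chosen after their values were seen. mt-Atp6, a mitochondrial gene for a subunit of ATP synthase, split the libraries without regard to the groups. It was at 368, 1381 and 1220 FPKM in controls 1 to 3 and 370, 1431 and 363 FPKM in knockdown libraries 1 to 3. An annotated pseudogene of the nuclear genome, Gm10925, matched it at 100% over 678 bases and was not in the deposited table. Whether reads were divided between the 2 differently in each library was not tested. The mt-Nd genes with such copies did not split in this way: mt-Nd4 stayed between 741 and 894 FPKM, and mt-Nd3 between 123 and 179 FPKM.

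Tmem70, an assembly factor of ATP synthase that also serves complex I, was at 27.4, 27.5 and 11.7 FPKM in the controls and 10.6, 29.0 and 11.4 FPKM in the knockdown libraries, again in 2 levels that crossed the groups. The assembly factor Ndufaf4 was at 1.18, 2.72 and 0.922 FPKM and then 0.847, 2.84 and 3.12 FPKM.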
